A study of Homo sapiens with 15 samples.

Results

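The 37 genes described here encode axon guidance ligands and receptors: semaphorins with their plexin and neuropilin receptors, slits with their roundabout (ROBO) receptors, netrins with UNC5 receptors, and FLRT proteins. They were taken by name from 16604 genes, as the protein-coding genes whose symbol begins with SEMA3 to SEMA7, PLXNA to PLXND, ROBO, UNC5 or FLRT, or with SLIT or NTN and a number, together with NRP1, NRP2, DCC and NEO1. The prefix UNC5 also takes UNC50, which encodes a membrane protein outside the netrin receptors, and UNC5CL, a death-domain protein related to UNC5C in part. Of 53 annotated genes with such names, 16 were not analysed here, among them the netrin receptors DCC and NEO1.

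RNA was sequenced from 5 human cell lines with 3 biological replicates each. OVCAR4 (labelled Ovcar4Parental) is an established high-grade serous ovarian cancer line, sensitive to cisplatin and carboplatin, drugs that crosslink DNA. Ov4Cis was grown from it in rising cisplatin and is cisplatin resistant, and Ov4Carbo in rising carboplatin and is carboplatin resistant. Ov4Carbo4 and Ov4Carbo7 each grew from a single cell of Ov4Carbo, so each is 1 clone. Each selection is represented by 1 derived population, so the replicates measure the spread between cultures of a line and not between independent selections. All lines were grown in DMEM with serum, and whether drug was present at harvest is not given in the sources used here.

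Semaphorins are secreted or membrane-bound ligands whose signal is carried by plexins, large receptors that act on small GTPases and the actin cytoskeleton. Most secreted class 3 semaphorins bind plexins together with a neuropilin, while class 4 to 7 semaphorins bind plexins directly or, for SEMA7A, also integrins. Slits are secreted proteins that bind ROBO receptors and repel migrating cells, and netrins are laminin-related proteins that attract or repel through DCC, neogenin and UNC5 receptors. FLRT proteins are cell-surface adhesion molecules that bind UNC5 receptors and latrophilins. In epithelial tumours these genes are studied for cell migration, adhesion, vessel growth and receptor-dependent cell survival.

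Values are log2 RPKM, the base 2 logarithm of reads counted per kilobase of gene and scaled to library size, which the authors adjusted for gene length and GC content. A value of 0 is 1 RPKM, and values far below 0 are near the limit of measurement. Lines were compared with limma, with Benjamini-Hochberg adjustment across the 16604 genes. Genes with an adjusted p under 0.05 that differed by 1 log2 unit or more are termed called, and rose and fell are used for these alone. For genes of low level the difference in log2(RPKM + 1) is added, a scale that shrinks differences among low values. In a bulk library fewer expressing cells and less RNA per cell cannot be told apart.

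The medians of the samples lay between 2.768 and 2.770, because the authors' normalization equalizes the distributions, and the read depth of each sample is unknown. The serous lineage markers PAX8 and SOX17 stood at line means of at least 5.85 and 6.65 log2 RPKM in every line, while WT1, often present in serous carcinoma, was between -5.07 and -1.52. EPCAM, an epithelial adhesion marker, stood at 5.98 in Ovcar4Parental, at 5.32 and 5.23 in Ov4Carbo and Ov4Carbo4, at 3.01 in Ov4Carbo7 and at 1.17 in Ov4Cis. Of 10 serous and epithelial markers, 9 had a mean of at least 1 in Ovcar4Parental and in Ov4Carbo, 8 in Ov4Carbo7, 7 in Ov4Carbo4 and 5 in Ov4Cis. Their summed level ran from 831 to 1024 RPKM in Ovcar4Parental, from 402 to 579 over the carboplatin lines and from 336 to 437 in Ov4Cis. Of 6 leukocyte markers the table analysed holds 1, CD14, at a line mean of at most 0.58. Of 4 endothelial markers it holds 2, VWF below 0 in every line and CDH5 between 2.15 and 5.13, with a summed level of 31.8 to 40.4 RPKM in Ov4Cis, 20.6 to 25.1 in Ov4Carbo4 and at most 10.2 in the other lines. Of 6 fibroblast markers it holds 4, of which COL1A1 lay between 2.26 and 3.63 and PDGFRB, LUM and THY1 below 0. The part of these differences in the results below was not tested.

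The sample titles carry numbers in 2 series. One holds replicate 1 of Ov4Carbo and all samples of Ov4Carbo4 and Ov4Carbo7, and the other holds the remaining samples. The labels give the series no meaning. For the single-cell lines against Ovcar4Parental, series and line cannot be told apart except through the replicates of Ov4Carbo. In comparisons of the single-cell lines with Ov4Carbo, replicate 1 of Ov4Carbo alone shares their series.

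**Figure D1:**
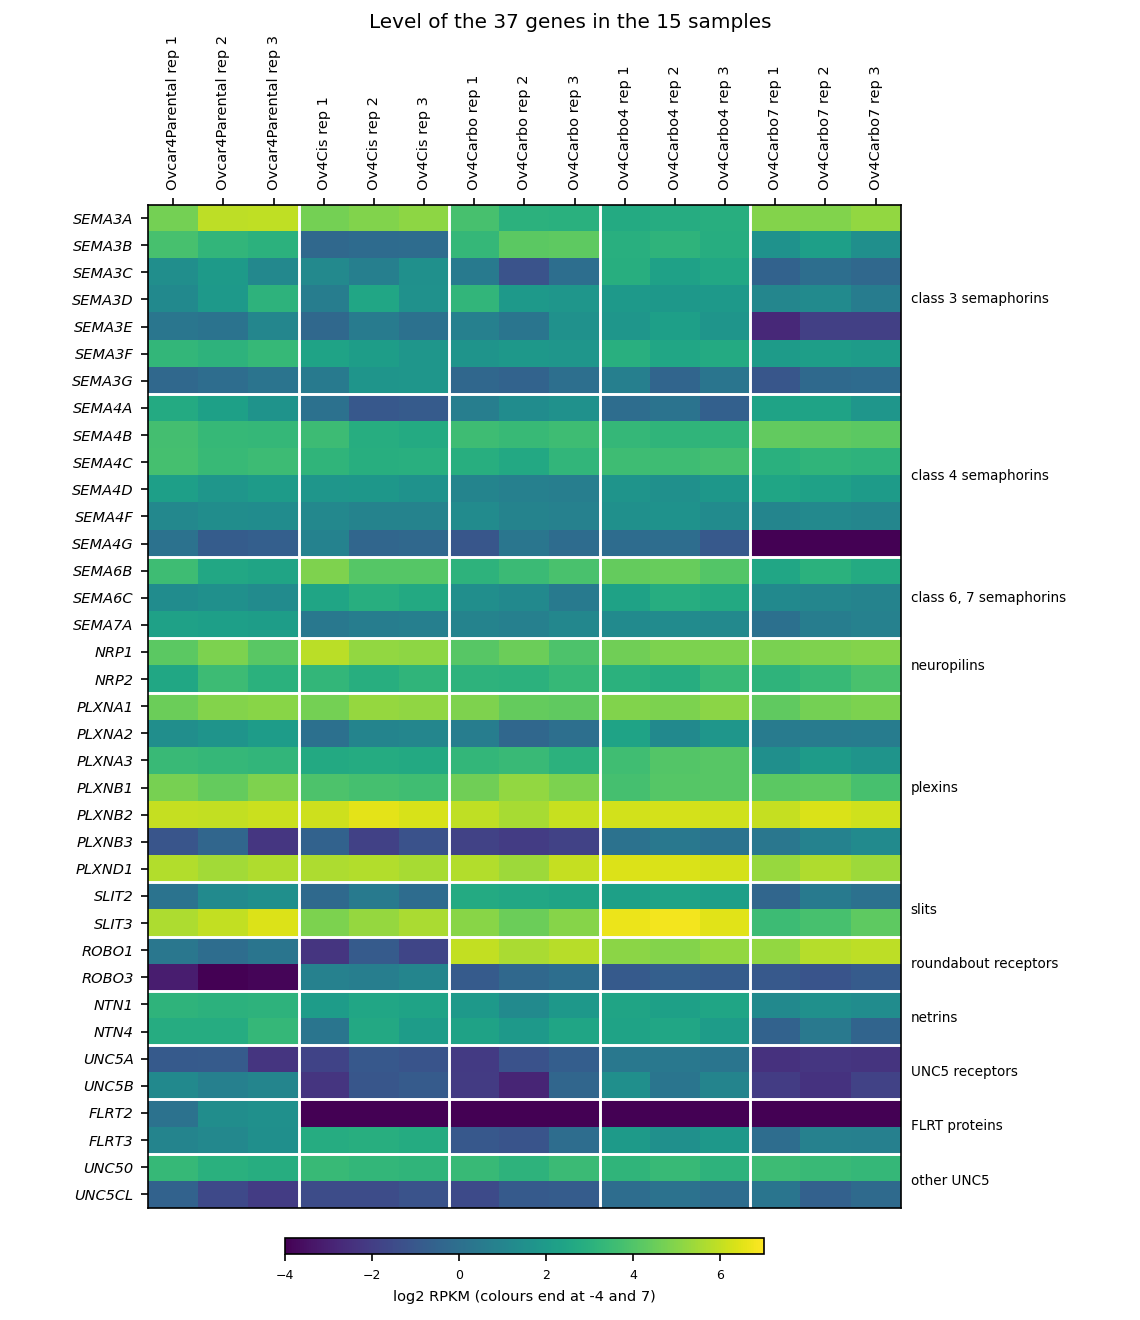
Level of each of the 37 genes (rows, grouped by family) in each of the 15 samples (columns), as log2 RPKM from dark (low) to yellow (high), with colours ending at -4 and 7. FLRT2 is dark in all 12 samples of the derived lines, ROBO1 is bright in the 9 samples of the 3 carboplatin lines, and SEMA4G is dark in the 3 samples of Ov4Carbo7.

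The guidance genes were spread over a wide range of levels. In Ovcar4Parental and Ov4Carbo4 28 of 37 had a mean of at least log2 RPKM 1, against 23 in Ov4Carbo, 22 in Ov4Cis and 21 in Ov4Carbo7. Their median level was 2.21 in Ovcar4Parental, 2.37 in Ov4Carbo4, 1.77 in Ov4Carbo, 1.67 in Ov4Cis and 1.35 in Ov4Carbo7, against 2.76 to 2.77 over all genes. The plexins PLXNB2 and PLXND1 were among the 3 highest in every line. SLIT3 and SEMA3A completed the first 4 in Ovcar4Parental, whereas ROBO1 was among the first 4 in each carboplatin line.

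Differences between lines were frequent among them. The moderated F-test of limma found a difference among the 5 lines for 33 of 37 genes, 89.2%, where 76.9% of all genes passed. NRP2, PLXNA1, SEMA3D and UNC50 did not pass. Against Ovcar4Parental, Ov4Cis had 15 called members (40.5% of them, against 15.9% of all genes), 6 higher (8.46% of all genes) and 9 lower (7.41%). Ov4Carbo also had 15 (background 12.7%), with 3 higher (5.76%) and 12 lower (6.93%). In Ov4Carbo4 13 members were called (15.1%), of which 10 were higher (7.43%) and 3 lower (7.70%). That balance depended on the setting, with 2 higher and 3 lower in log2(RPKM + 1) and 5 higher and 3 lower with a title series term. With a variance trend, after centring on sample medians and with the compared groups alone the counts stayed at 10 and 3. In Ov4Carbo7 17 were called (17.0%), 4 of them higher (9.26%) and 13 lower (7.75%). The 4 comparisons share the 3 parental samples. The median of the members' log2 fold changes was -0.39, -0.24, 0.15 and -0.48 in that order, against 0.04, 0.03, 0.07 and 0.02 over all genes.

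Most members moved in some line. In all, 27 of 37 were called in at least 1 derived line, 73.0% against 30.5% of all genes, and 29 in at least 1 of 8 comparisons between lines (38.6% of all genes). FLRT2 was the 1 member lower in all 4 lines, 2.70% of members against 1.65% of all genes. ROBO3 was the 1 member higher in all 4, 2.70% against 1.73%. FLRT3, ROBO1, SEMA3C and SEMA3E rose in at least 1 derived line and fell in another, 10.8% of members against 2.81% of all genes. On the log2(RPKM + 1) scale 10 of the 15 calls in Ov4Cis also passed, 11 of 15 in Ov4Carbo, 5 of 13 in Ov4Carbo4 and 12 of 17 in Ov4Carbo7. The calls lost there were NRP1, PLXNA2, ROBO1, SEMA3F and SEMA3G in Ov4Cis, and ROBO3, SEMA4A, SEMA4D and SEMA7A in Ov4Carbo. In Ov4Carbo4 they were PLXNB3, ROBO3, SEMA3C, SEMA3E, SEMA6C, SLIT2, UNC5A and UNC5CL, and in Ov4Carbo7 PLXNA2, PLXNB3, ROBO3, SEMA4G and UNC5CL.

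**Figure D2:**
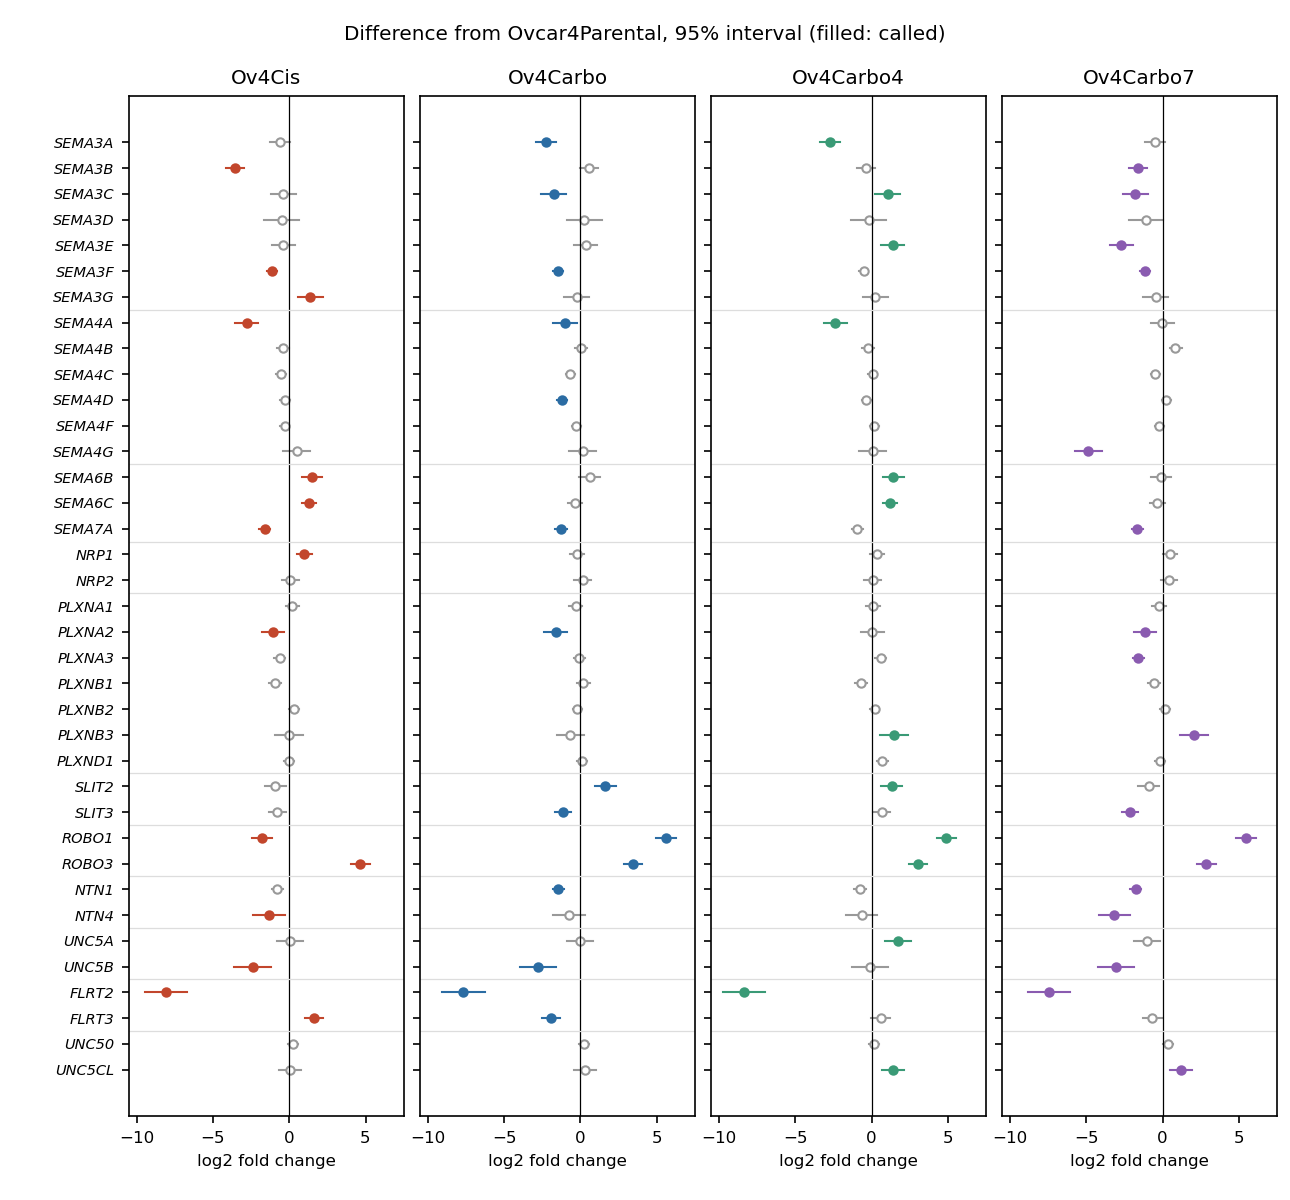
Log2 fold change of each gene against Ovcar4Parental (x axis) in the 4 derived lines (panels), with 95% intervals from limma; filled points are called and open points are not. FLRT2 lies at -7.45 or below in each panel and ROBO1 lies at 4.91 or above in the 3 carboplatin panels and at -1.80 in Ov4Cis.

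The largest rise belonged to ROBO1, a receptor for slits, and it separated the carboplatin lines from the others. ROBO1 stood at 0.35, -0.05 and 0.26 log2 RPKM in replicates 1 to 3 of Ovcar4Parental, -2.31, -0.83 and -1.71 in Ov4Cis, and 5.97, 5.59 and 5.83 in Ov4Carbo. The single-cell lines gave 5.10, 4.98 and 5.23 (Ov4Carbo4) and 5.23, 5.77 and 5.92 (Ov4Carbo7). All 9 carboplatin samples lay above all 3 parental samples, and all 3 Ov4Cis samples lay below them. ROBO1 rose by 5.61 (SE 0.30, adjusted p = 1.22e-07) in Ov4Carbo, by 4.91 (SE 0.30, adjusted p = 1.86e-07) in Ov4Carbo4 and by 5.45 (SE 0.30, adjusted p = 9.82e-08) in Ov4Carbo7, which is 48.8-fold, 30.1-fold and 43.8-fold. In Ov4Cis it fell by 1.80 (SE 0.30, adjusted p = 4.30e-04), although in log2(RPKM + 1) the difference of -0.67 was not called. The direct difference between Ov4Cis and Ov4Carbo was -7.41 (SE 0.30, adjusted p = 4.41e-09). Neither single-cell line was called against Ov4Carbo, at -0.69 (95% interval -1.34 to -0.05) and -0.16 (-0.80 to 0.49). Replicates of Ov4Carbo from both title series were high.

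ROBO3, a divergent family member that lowers slit responses in commissural axons, was low throughout but rose in every derived line. Its values ran from -4.47 to 1.01 log2 RPKM. It stood at -3.12, -4.47 and -3.87 in Ovcar4Parental and at 0.83, 0.71 and 1.01 in Ov4Cis, its highest line. All 12 derived samples lay above the 3 parental ones. The log2 fold change was 4.67 (SE 0.28, adjusted p = 9.66e-08) in Ov4Cis, while Ov4Carbo gave 3.44 and its clones 3.04 (Ov4Carbo4) and 2.86 (Ov4Carbo7) (SE 0.28 in each, adjusted p of at most 7.13e-06). On the log2(RPKM + 1) scale these were 1.38, 0.73, 0.56 and 0.49, so that the call held in Ov4Cis alone. With the parental line at such levels, the size of the fold is uncertain.

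The slit ligands went separate ways. The log2 RPKM of SLIT2 was 0.17, 1.27 and 1.47 in the parental replicates and -0.25, 0.53 and -0.11 in those of Ov4Cis. Among the carboplatin lines it was 2.74, 2.61 and 2.44 in Ov4Carbo, 2.26, 2.39 and 2.23 in Ov4Carbo4 and -0.39, 0.52 and 0.10 in Ov4Carbo7. SLIT2, a secreted ligand of ROBO1, rose in Ov4Carbo by 1.62 (SE 0.32, adjusted p = 0.00212) and in Ov4Carbo4 by 1.32 (SE 0.32, adjusted p = 0.00563). All 6 samples of those lines lay above every other sample. It was -0.92 in Ov4Cis and -0.90 in Ov4Carbo7 against Ovcar4Parental, neither called. Parental replicate 1 was lower than the others, and without it the Ov4Carbo4 value was 0.92 (adjusted p = 0.0171), under the fold limit, and with a title series term it was 1.11 (adjusted p = 0.185). ROBO1 was thus high in all 3 carboplatin lines and SLIT2 in Ov4Carbo and Ov4Carbo4, with SLIT2 in Ov4Carbo7 -2.52 against Ov4Carbo (SE 0.32, adjusted p = 1.02e-04).

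SLIT3 was the most abundant slit in every line, supplying between 83.0% and 97.3% of the summed slit RPKM. For SLIT3, Ovcar4Parental gave 5.65, 5.99 and 6.40 log2 RPKM, Ov4Cis 4.84, 5.28 and 5.62, and Ov4Carbo 5.05, 4.54 and 5.02. The clones of Ov4Carbo gave 6.68, 6.82 and 6.51 in Ov4Carbo4 and 3.52, 3.81 and 4.26 in Ov4Carbo7. Ov4Carbo4 was the highest line and Ov4Carbo7 the lowest, and neither overlapped with any other line. SLIT3 fell by 2.15 in Ov4Carbo7 (SE 0.25, adjusted p = 2.59e-05) and by 1.14 in Ov4Carbo (SE 0.25, adjusted p = 0.00422). Without parental replicate 3 the Ov4Carbo value was -0.95 (adjusted p = 0.021), and without Ov4Carbo replicate 2 it was -0.98 (adjusted p = 0.0192), both short of the fold limit. Against Ov4Carbo, Ov4Carbo4 was higher by 1.80 (SE 0.25, adjusted p = 1.56e-04).

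The 250 bases before the annotated start of ROBO1, ROBO3, SLIT2 and FLRT2 are shown. Against Ovcar4Parental, ROBO1 had the largest rise and FLRT2 the largest fall, and ROBO3 and FLRT2 were called in every derived line. SLIT2, a ligand of ROBO1, had smaller changes, called in Ov4Carbo and Ov4Carbo4 alone. The sequences are from RefSeq on GRCh38.p14, read 5′ to 3′ on the strand of the gene, with each CpG, the dinucleotide that DNA methylation acts on, in capitals. Each stands for 1 annotated start, and which start these lines use was not measured.
ROBO1, chr3:79767999-79768248, minus strand: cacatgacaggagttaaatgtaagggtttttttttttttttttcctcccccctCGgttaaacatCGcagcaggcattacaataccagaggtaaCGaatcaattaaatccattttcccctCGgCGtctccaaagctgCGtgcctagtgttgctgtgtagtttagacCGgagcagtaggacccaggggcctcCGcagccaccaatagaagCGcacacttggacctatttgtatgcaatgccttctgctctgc
ROBO3, chr11:124875932-124876181, plus strand: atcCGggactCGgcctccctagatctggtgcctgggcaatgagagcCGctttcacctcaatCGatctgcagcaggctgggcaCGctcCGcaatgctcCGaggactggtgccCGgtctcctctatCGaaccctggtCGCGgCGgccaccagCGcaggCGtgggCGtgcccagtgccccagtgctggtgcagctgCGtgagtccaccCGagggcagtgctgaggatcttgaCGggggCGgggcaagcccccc
SLIT2, chr4:20251655-20251904, plus strand: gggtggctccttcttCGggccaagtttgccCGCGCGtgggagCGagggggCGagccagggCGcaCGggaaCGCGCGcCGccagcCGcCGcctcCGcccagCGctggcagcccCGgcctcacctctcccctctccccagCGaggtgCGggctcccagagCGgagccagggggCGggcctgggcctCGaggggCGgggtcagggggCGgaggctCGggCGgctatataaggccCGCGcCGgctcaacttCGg
FLRT2, chr14:85529894-85530143, plus strand: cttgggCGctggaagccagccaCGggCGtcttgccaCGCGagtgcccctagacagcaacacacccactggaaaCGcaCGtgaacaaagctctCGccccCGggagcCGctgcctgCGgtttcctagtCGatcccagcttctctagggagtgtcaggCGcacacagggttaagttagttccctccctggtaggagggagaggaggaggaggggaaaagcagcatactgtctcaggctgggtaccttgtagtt
The windows held 9 CpGs for ROBO1, 19 for ROBO3, 30 for SLIT2 and 13 for FLRT2, and a GC content of 48.0%, 68.0%, 77.2% and 60.4%. RefSeq windows were matched for 32 of the 37 members, with a median of 16 CpGs and 65.4% GC, against 11 CpGs and 58.0% over 35116 windows of the same length. The E-box CACCTG, a motif bound by SNAI and ZEB repressors, on either strand, was in 5 of 32 member windows (15.6%) and in 17.5% of all, and in none of the 4 shown. Whether these counts relate to the changes in level was not tested.

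FLRT2, an adhesion protein that binds UNC5 receptors and latrophilins, was above 1 RPKM in the parental line alone. FLRT2 measured 0.15, 1.38 and 1.54 log2 RPKM in Ovcar4Parental. With cisplatin selection it measured -7.00, -7.00 and -7.13, and with carboplatin selection -8.04, -6.11 and -5.75 in Ov4Carbo, -7.00, -7.68 and -7.30 in Ov4Carbo4 and -5.59, -7.86 and -5.84 in Ov4Carbo7. The parental values lay around 1 to 3 RPKM, and all 12 derived samples were at -5.59 or lower. The log2 fold change was -8.06 (SE 0.64, adjusted p = 9.88e-07) in Ov4Cis, while Ov4Carbo gave -7.66, Ov4Carbo4 gave -8.34 and Ov4Carbo7 gave -7.45 (SE 0.64 in each). Values this low are near the limit of measurement, so these sizes are uncertain, and in log2(RPKM + 1) each change was -1.62 or -1.61. Without Ov4Carbo replicate 1, the lowest sample, the Ov4Carbo value was -6.95 (adjusted p = 7.63e-06), and without Ov4Carbo7 replicate 2 the Ov4Carbo7 value was -6.74 (adjusted p = 7.63e-06).

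FLRT3, its close relative, moved in opposite directions in the drug-selected populations. FLRT3 stood at 0.97, 1.15 and 1.47 log2 RPKM in replicates 1 to 3 of Ovcar4Parental, 2.79, 2.91 and 2.78 in Ov4Cis, and -0.99, -1.13 and -0.07 in Ov4Carbo. The single-cell lines gave 1.99, 1.52 and 1.87 (Ov4Carbo4) and -0.05, 0.83 and 0.78 (Ov4Carbo7). It rose in Ov4Cis by 1.63 (SE 0.28, adjusted p = 6.30e-04) and fell in Ov4Carbo, with -1.93 (SE 0.28, adjusted p = 3.00e-04). All 3 Ov4Cis samples were above every other sample of the study and all 3 Ov4Carbo samples below every other sample. Ov4Cis exceeded Ov4Carbo by 3.55 (SE 0.28, adjusted p = 1.64e-06). Both single-cell lines were above Ov4Carbo, Ov4Carbo4 by 2.52 (SE 0.28, adjusted p = 3.60e-05) and Ov4Carbo7 by 1.25 (SE 0.28, adjusted p = 0.00468), and neither was called against Ovcar4Parental.

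**Figure D3:**
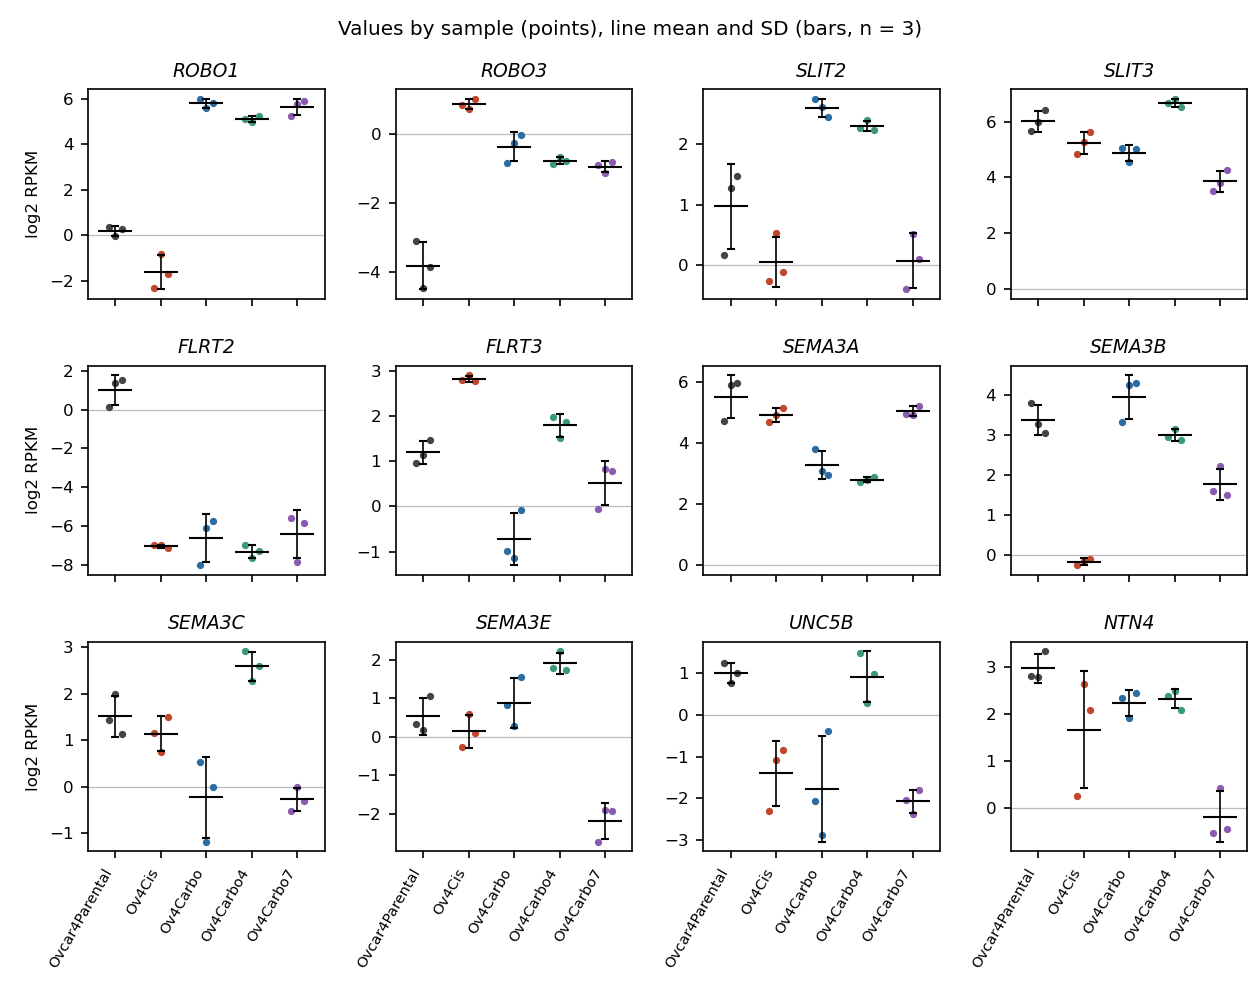
Log2 RPKM of 12 guidance genes in each sample (points) of the 5 lines (x axis), with the line mean and SD (bars, n = 3); each panel has its own y axis and the grey line marks 0. ROBO1 is high in the 3 carboplatin lines, FLRT2 in Ovcar4Parental, and SEMA3C, SEMA3E and UNC5B are higher in Ov4Carbo4 than in Ov4Carbo7.

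The netrins were highest in the parental line. The log2 RPKM of NTN1 was 3.16, 3.08 and 3.13 in the parental replicates and 2.10, 2.52 and 2.36 in those of Ov4Cis. Among the carboplatin lines it was 1.91, 1.26 and 1.87 in Ov4Carbo, 2.42, 2.24 and 2.46 in Ov4Carbo4 and 1.21, 1.52 and 1.33 in Ov4Carbo7. NTN1, the founding secreted netrin, fell in Ov4Carbo by 1.45 on the log2 scale (SE 0.17, adjusted p = 5.08e-05) and in Ov4Carbo7 by 1.77 (SE 0.17, adjusted p = 5.36e-06). In Ov4Cis and Ov4Carbo4 it stood at -0.80 and -0.75, under the fold limit although no sample reached the parental values.

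For NTN4, Ovcar4Parental gave 2.82, 2.79 and 3.34 log2 RPKM, Ov4Cis 0.26, 2.64 and 2.10, and Ov4Carbo 2.35, 1.93 and 2.46. The clones of Ov4Carbo gave 2.40, 2.50 and 2.10 in Ov4Carbo4 and -0.54, 0.44 and -0.44 in Ov4Carbo7. NTN4, a netrin that also binds laminin in basement membranes, fell in Ov4Carbo7 by 3.16 (SE 0.48, adjusted p = 2.01e-04), or 8.95-fold. The fall in Ov4Cis, with -1.31 (SE 0.48, adjusted p = 0.048), rested on uneven replicates. Without Ov4Cis replicate 1 it was -0.61 (adjusted p = 0.153), and the call was also lost without Ov4Cis replicate 3 (-1.53, adjusted p = 0.0518) or without parental replicate 1 (-1.39, adjusted p = 0.0773), 2 (-1.41, adjusted p = 0.0761) or 3 (-1.13, adjusted p = 0.138). Summed over both genes, netrin RPKM was 16.7 ± 1.86 in Ovcar4Parental and 3.49 ± 0.649 in Ov4Carbo7 (SD, n = 3), and was 8.96 ± 3.27 in Ov4Cis, 8.08 ± 1.63 in Ov4Carbo and 9.80 to 10.6 in the samples of Ov4Carbo4.

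Of the UNC5 receptors, which bind netrins and FLRT proteins and can signal cell death without ligand, UNC5B changed most. UNC5B measured 1.24, 0.77 and 1.00 log2 RPKM in Ovcar4Parental. With cisplatin selection it measured -2.30, -1.07 and -0.84, and with carboplatin selection -2.07, -2.87 and -0.39 in Ov4Carbo, 1.49, 0.28 and 0.97 in Ov4Carbo4 and -2.04, -2.37 and -1.81 in Ov4Carbo7. It fell in Ov4Cis, with -2.40 (SE 0.55, adjusted p = 0.00405), in Ov4Carbo, with -2.78 (SE 0.55, adjusted p = 0.00217), and in Ov4Carbo7, with -3.07 (SE 0.55, adjusted p = 6.82e-04). The 9 samples of those lines lay below all parental and all Ov4Carbo4 samples, and Ov4Carbo4 differed from the parental line by -0.09 (95% interval -1.27 to 1.10). Without Ov4Carbo replicate 3, the highest of its line, the Ov4Carbo value was -3.47 (adjusted p = 2.13e-04). With a title series term the Ov4Carbo7 value was -2.64 (adjusted p = 0.0776). In log2(RPKM + 1) the 3 falls were -1.10, -1.15 and -1.28.

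UNC5A lay between -2.45 and 0.42 log2 RPKM. It rose in Ov4Carbo4 by 1.71 (SE 0.39, adjusted p = 0.00426), a difference of 0.69 in log2(RPKM + 1). UNC5CL, between -2.06 and 0.29, rose in Ov4Carbo4 by 1.39 and in Ov4Carbo7 by 1.22, the latter with overlapping values. That call was lost without parental replicate 3 (0.88, adjusted p = 0.0495) and without Ov4Carbo7 replicate 1 (0.99, adjusted p = 0.051). UNC5CL shares 747 exonic bases with OARD1 on the same strand. UNC50 lay between 2.87 and 3.56 and was called in no comparison.

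Among the class 3 semaphorins, secreted ligands read mainly through neuropilins, SEMA3A was the most abundant in Ovcar4Parental and supplied 61.9% of the summed class RPKM there. SEMA3A stood at 4.71, 5.90 and 5.96 log2 RPKM in replicates 1 to 3 of Ovcar4Parental, 4.70, 4.91 and 5.15 in Ov4Cis, and 3.81, 3.08 and 2.97 in Ov4Carbo. The single-cell lines gave 2.72, 2.81 and 2.90 (Ov4Carbo4) and 4.96, 4.93 and 5.23 (Ov4Carbo7). It fell in Ov4Carbo, with -2.24 (SE 0.30, adjusted p = 1.44e-04), and in Ov4Carbo4, with -2.71 (SE 0.30, adjusted p = 2.15e-05), and the 6 samples of those lines lay below all others. In Ov4Carbo7 it was -0.48 against the parental line and 1.76 (SE 0.30, adjusted p = 7.57e-04) against Ov4Carbo. In Ov4Cis it was -0.60 against the parental line (95% interval -1.25 to 0.05).

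SEMA3B, a secreted semaphorin studied as a tumour suppressor on the short arm of chromosome 3, fell most in the cisplatin line. The log2 RPKM of SEMA3B was 3.78, 3.26 and 3.05 in the parental replicates and -0.27, -0.15 and -0.10 in those of Ov4Cis. Among the carboplatin lines it was 3.32, 4.24 and 4.28 in Ov4Carbo, 2.93, 3.15 and 2.87 in Ov4Carbo4 and 1.59, 2.21 and 1.48 in Ov4Carbo7. It fell in Ov4Cis by 3.54 on the log2 scale (SE 0.27, adjusted p = 6.30e-07), or 11.6-fold, and in Ov4Carbo7, with -1.60 (SE 0.27, adjusted p = 4.26e-04). Ov4Carbo and Ov4Carbo4 overlapped with the parental line, at 0.58 and -0.38. Replicate 1 of Ov4Carbo, from the title series of the single-cell lines, was below its other replicates, and with a term for the series the Ov4Carbo7 value was -0.66 (adjusted p = 0.206).

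SEMA3F, another secreted member that signals through NRP2, was highest in the parental line. For SEMA3F, Ovcar4Parental gave 3.27, 3.10 and 3.35 log2 RPKM, Ov4Cis 2.37, 2.11 and 1.80, and Ov4Carbo 1.68, 1.86 and 1.77. The clones of Ov4Carbo gave 2.95, 2.50 and 2.72 in Ov4Carbo4 and 2.03, 2.15 and 2.04 in Ov4Carbo7. It fell in Ov4Cis, with -1.15 (SE 0.15, adjusted p = 5.75e-05), in Ov4Carbo, with -1.47 (SE 0.15, adjusted p = 1.64e-05), and in Ov4Carbo7, with -1.17 (SE 0.15, adjusted p = 4.67e-05). In Ov4Carbo4 it was -0.52, with all 3 samples below the parental ones but under the fold limit. Its exons overlap an annotated antisense gene, SEMA3F-AS1, by 110 bases, and the strand setting of the counts is not given in the sources used here.

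SEMA3C and SEMA3E, secreted ligands that act on vessels and on migrating cells, were the members called in both single-cell lines on opposite sides of the parental line. SEMA3C measured 1.43, 2.00 and 1.13 log2 RPKM in Ovcar4Parental. With cisplatin selection it measured 1.16, 0.75 and 1.50, and with carboplatin selection 0.52, -1.19 and -0.01 in Ov4Carbo, 2.91, 2.28 and 2.59 in Ov4Carbo4 and -0.52, -0.01 and -0.30 in Ov4Carbo7. SEMA3C rose in Ov4Carbo4 by 1.07 (SE 0.38, adjusted p = 0.0388) and fell in Ov4Carbo, with -1.75 (SE 0.38, adjusted p = 0.00381), and in Ov4Carbo7, with -1.80 (SE 0.38, adjusted p = 0.0021). The rise was close to the limits. It was not called without parental replicate 1 (1.02, adjusted p = 0.0937) or 3 (0.88, adjusted p = 0.13) or without Ov4Carbo4 replicate 1 (0.91, adjusted p = 0.126) or 3 (1.07, adjusted p = 0.0864), and with a title series term it was -0.05 (adjusted p = 0.959).

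SEMA3E stood at 0.33, 0.18 and 1.06 log2 RPKM in replicates 1 to 3 of Ovcar4Parental, -0.27, 0.58 and 0.10 in Ov4Cis, and 0.81, 0.27 and 1.55 in Ov4Carbo. The single-cell lines gave 1.77, 2.21 and 1.72 (Ov4Carbo4) and -2.73, -1.90 and -1.92 (Ov4Carbo7). SEMA3E, the ligand of PLXND1, rose in Ov4Carbo4 by 1.38 (SE 0.35, adjusted p = 0.00801) and fell in Ov4Carbo7, with -2.71 (SE 0.35, adjusted p = 6.45e-05). All Ov4Carbo7 samples lay below every other sample and all Ov4Carbo4 samples above every other. The rise was 0.95 on the log2(RPKM + 1) scale and 1.48 (adjusted p = 0.118) with a title series term. Its receptor PLXND1 stood between 5.32 and 6.41 log2 RPKM in all samples.

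The log2 RPKM of SEMA3G was -0.30, -0.05 and 0.25 in the parental replicates and 0.49, 1.75 and 1.77 in those of Ov4Cis. Among the carboplatin lines it was -0.33, -0.50 and 0.02 in Ov4Carbo, 0.75, -0.43 and 0.26 in Ov4Carbo4 and -1.05, -0.23 and -0.14 in Ov4Carbo7. SEMA3G, a ligand of NRP2, rose in Ov4Cis by 1.37 (SE 0.38, adjusted p = 0.0128), with Ov4Cis replicate 1 well below the other replicates. That call was lost without Ov4Cis replicate 2 (1.16, adjusted p = 0.0555) or replicate 3 (1.15, adjusted p = 0.0582). SEMA3D ran from 0.64 to 3.26, both extremes lying in lines selected with platinum, and was called in no comparison. SEMA3A, SEMA3C, SEMA3D and SEMA3E all lie on chromosome 7, and SEMA3B, SEMA3F and SEMA3G on chromosome 3, and genes of one chromosome differed in direction. In Ov4Carbo4, for example, SEMA3A fell while SEMA3C and SEMA3E rose. Summed class 3 RPKM was 79.7 ± 20.2 in Ovcar4Parental and between 36.5 and 45.2 in the derived lines.

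The class 4 semaphorins are membrane-bound ligands of B-type and D-type plexins, and SEMA4A changed most among those with a parental mean above log2 RPKM 1. For SEMA4A, Ovcar4Parental gave 2.72, 2.24 and 1.66 log2 RPKM, Ov4Cis 0.10, -0.98 and -0.85, and Ov4Carbo 0.72, 1.35 and 1.55. The clones of Ov4Carbo gave -0.08, 0.20 and -0.63 in Ov4Carbo4 and 2.36, 2.37 and 1.79 in Ov4Carbo7. It fell in Ov4Cis, with -2.78 (SE 0.35, adjusted p = 5.40e-05), and in Ov4Carbo4, with -2.37 (SE 0.35, adjusted p = 2.05e-04), while Ov4Carbo7 overlapped with the parental line at -0.03. The fall in Ov4Carbo stood at the fold limit (SE 0.35, adjusted p = 0.0446). It was lost without parental replicate 1 (-0.74, adjusted p = 0.149) or 2 (-0.98, adjusted p = 0.105) and without Ov4Carbo replicate 1 (-0.76, adjusted p = 0.127) or 2 (-1.07, adjusted p = 0.0728), and the Ov4Carbo4 value with a title series term was -1.65 (adjusted p = 0.0646).

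SEMA4D measured 2.23, 1.77 and 2.05 log2 RPKM in Ovcar4Parental. With cisplatin selection it measured 1.77, 1.81 and 1.62, and with carboplatin selection 0.98, 0.78 and 0.72 in Ov4Carbo, 1.69, 1.53 and 1.81 in Ov4Carbo4 and 2.47, 2.30 and 2.05 in Ov4Carbo7. SEMA4D, a ligand of PLXNB1, fell in Ov4Carbo, with -1.19 (SE 0.14, adjusted p = 6.53e-05), and all 3 samples of that line lay below all others. SEMA4G, a poorly studied member, lay between -1.04 and 0.87 in 4 lines and was lower in Ov4Carbo7, where it stood at -5.38, -5.21 and -5.31. Its fall there was -4.86 (SE 0.41, adjusted p = 2.01e-06), which in log2(RPKM + 1) was -0.78. It shares 1170 exonic bases with MRPL43 on the opposite strand. SEMA4B (2.72 to 4.36), SEMA4C (2.62 to 3.75) and SEMA4F (0.84 to 1.62) were called in no line against the parental line.

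The transmembrane class 6 semaphorins are ligands of A-type plexins. SEMA6B and SEMA6C were higher in Ov4Cis and Ov4Carbo4, and SEMA6A and SEMA6D were not analysed here. SEMA6B stood at 3.59, 2.60 and 2.42 log2 RPKM in replicates 1 to 3 of Ovcar4Parental, 4.86, 4.11 and 4.12 in Ov4Cis, and 3.09, 3.48 and 3.86 in Ov4Carbo. The single-cell lines gave 4.42, 4.43 and 4.07 (Ov4Carbo4) and 2.53, 3.04 and 2.72 (Ov4Carbo7). SEMA6B rose in Ov4Cis by 1.49 (SE 0.31, adjusted p = 0.00216) and in Ov4Carbo4 by 1.43 (SE 0.31, adjusted p = 0.00281). The log2 RPKM of SEMA6C was 1.33, 1.53 and 1.30 in the parental replicates and 2.46, 2.90 and 2.67 in those of Ov4Cis. Among the carboplatin lines it was 1.42, 1.22 and 0.51 in Ov4Carbo, 2.32, 2.85 and 2.68 in Ov4Carbo4 and 1.20, 1.03 and 0.90 in Ov4Carbo7. SEMA6C rose in the same lines, by 1.29 (SE 0.22, adjusted p = 4.79e-04) and 1.23 (SE 0.22, adjusted p = 7.06e-04). All 6 samples of Ov4Cis and Ov4Carbo4 exceeded the other 9 for both genes. With a title series term the Ov4Carbo4 value of SEMA6C was 0.68 (adjusted p = 0.176).

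For SEMA7A, Ovcar4Parental gave 2.29, 2.21 and 2.12 log2 RPKM, Ov4Cis 0.42, 0.67 and 0.73, and Ov4Carbo 0.92, 0.81 and 1.10. The clones of Ov4Carbo gave 1.28, 1.31 and 1.17 in Ov4Carbo4 and 0.08, 0.68 and 0.83 in Ov4Carbo7. SEMA7A, a membrane-anchored semaphorin that signals through integrin beta 1 and PLXNC1, was lower than in the parental line in every derived sample. It fell in Ov4Cis, with -1.60 (SE 0.17, adjusted p = 1.05e-05), in Ov4Carbo, with -1.26 (SE 0.17, adjusted p = 1.32e-04), and in Ov4Carbo7, with -1.68 (SE 0.17, adjusted p = 7.66e-06). In Ov4Carbo4 it was -0.95 (adjusted p = 7.06e-04), short of the fold limit.

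The semaphorin receptors were counted apart from their ligands, and with so few genes a single call shifts their share widely. Of the 9 plexins and neuropilins, 3 were called in Ov4Carbo7, 2 in Ov4Cis and 1 each in Ov4Carbo and Ov4Carbo4, beside 17.0%, 15.9%, 12.7% and 15.1% of all genes. Of the 16 semaphorins 7 were called in Ov4Cis and 6 in each other derived line. NRP1 measured 4.22, 4.81 and 4.18 log2 RPKM in Ovcar4Parental. With cisplatin selection it measured 5.85, 5.20 and 5.15, and with carboplatin selection 4.13, 4.51 and 3.94 in Ov4Carbo, 4.62, 4.82 and 4.85 in Ov4Carbo4 and 4.77, 4.89 and 4.94 in Ov4Carbo7. NRP1, co-receptor of class 3 semaphorins and of VEGF, rose in Ov4Cis by 1.00 (SE 0.21, adjusted p = 0.0027), on the fold limit. The value was 0.78 (adjusted p = 0.0113) without Ov4Cis replicate 1, 0.91 (adjusted p = 0.0133) without parental replicate 1 and 0.89 (adjusted p = 0.0139) without parental replicate 3, each under that limit. NRP2 lay between 2.56 and 3.83 and was called in no comparison.

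PLXNA2 stood at 1.44, 1.68 and 2.10 log2 RPKM in replicates 1 to 3 of Ovcar4Parental, 0.04, 0.98 and 1.07 in Ov4Cis, and 0.68, -0.33 and 0.02 in Ov4Carbo. The single-cell lines gave 2.37, 1.23 and 1.79 (Ov4Carbo4) and 0.57, 0.59 and 0.62 (Ov4Carbo7). PLXNA2, a receptor for class 3 and class 6 semaphorins, fell in Ov4Carbo, with -1.62 (SE 0.34, adjusted p = 0.00317), in Ov4Carbo7, with -1.15 (SE 0.34, adjusted p = 0.0163), and in Ov4Cis, with -1.04 (SE 0.34, adjusted p = 0.0292). The Ov4Cis call was lost without Ov4Cis replicate 1 (-0.72, adjusted p = 0.126) or without parental replicate 2 (-1.07, adjusted p = 0.0603) or 3 (-0.86, adjusted p = 0.105). The Ov4Carbo7 call was lost without parental replicate 3 (-0.96, adjusted p = 0.0665). The log2 RPKM of PLXNA3 was 3.45, 3.32 and 3.22 in the parental replicates and 2.68, 2.77 and 2.69 in those of Ov4Cis. Among the carboplatin lines it was 3.29, 3.45 and 3.05 in Ov4Carbo, 3.61, 4.05 and 4.14 in Ov4Carbo4 and 1.46, 2.05 and 1.70 in Ov4Carbo7. PLXNA3, a related receptor on the X chromosome, fell in Ov4Carbo7, with -1.59 (SE 0.17, adjusted p = 1.25e-05), and its 3 samples there lay below all others.

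The most abundant plexins were not called against the parental line in any derived line. PLXNB2, a receptor for class 4 semaphorins and angiogenin, lay between 5.57 and 6.56, PLXND1 between 5.32 and 6.41, PLXNA1 between 4.31 and 5.27, and PLXNB1, the SEMA4D receptor, between 3.62 and 5.20. PLXNB3, a plexin of low level, lay between -2.25 and 1.25. It rose in Ov4Carbo4 by 1.48 (SE 0.42, adjusted p = 0.0139) and in Ov4Carbo7 by 2.06 (SE 0.42, adjusted p = 0.00174), and the same differences in log2(RPKM + 1) were 0.58 and 0.93. The Ov4Carbo4 call was lost without parental replicate 3 (0.97, adjusted p = 0.0517). Its exons share 1432 bases with SRPK3 on the same strand.

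**Figure D4:**
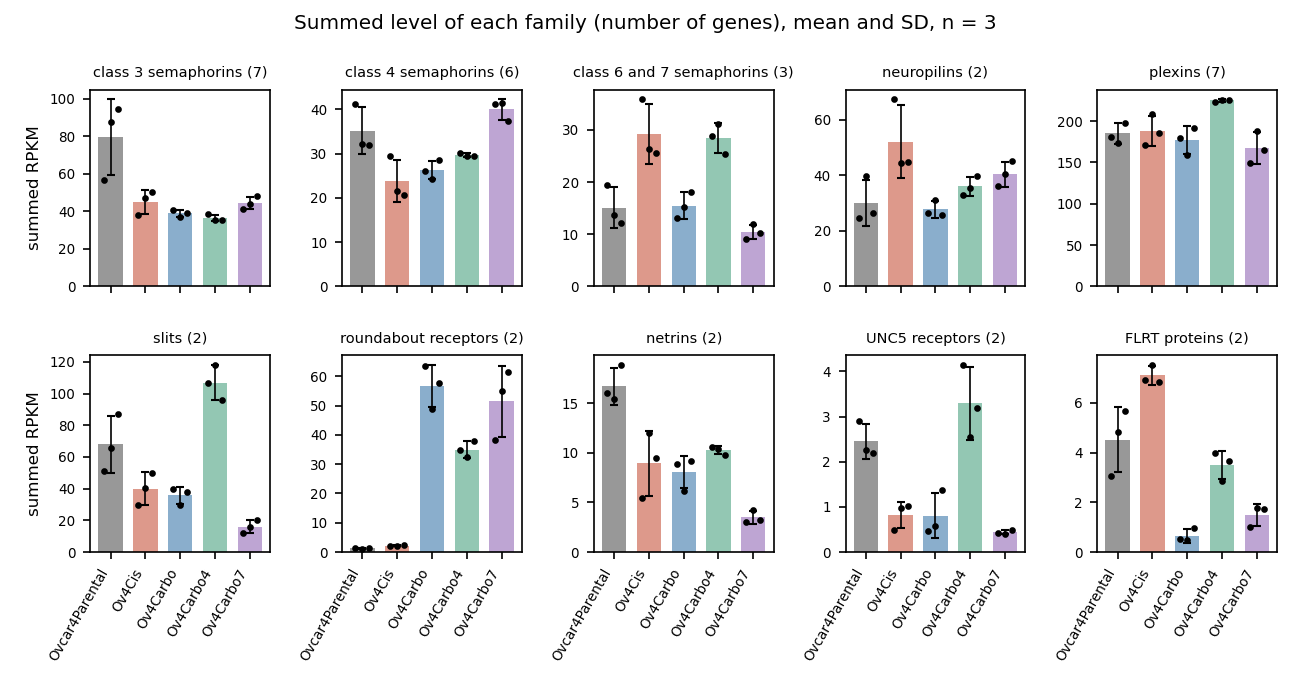
Summed RPKM of each family (panels; number of genes in brackets) in the 5 lines, with bars for the mean, error bars for the SD and points for the 3 samples. Roundabout receptors total 1.22 RPKM in Ovcar4Parental and 56.7 in Ov4Carbo, while slits total 107 in Ov4Carbo4 and lie between 12.2 and 20.2 in Ov4Carbo7.

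Added up on the linear scale, roundabout RPKM was 1.22 ± 0.193 in Ovcar4Parental, 2.17 ± 0.173 in Ov4Cis, and 56.7 ± 7.28 in Ov4Carbo (SD, n = 3 throughout). It was 34.7, 32.3 and 38.0 in the replicates of Ov4Carbo4 and 38.1, 54.9 and 61.3 in those of Ov4Carbo7. ROBO1 supplied 93.8% of it in Ovcar4Parental and at least 98.3% in the carboplatin lines, whereas in Ov4Cis ROBO3 supplied 83.5%. Slit RPKM was 68.1 ± 18.0 in Ovcar4Parental, 35.7 ± 5.51 in Ov4Carbo and 107 ± 11.3 in Ov4Carbo4. It averaged 39.9 in Ov4Cis, and in the replicates of Ov4Carbo7 it was 12.2, 15.5 and 20.2, below every other sample. Mean plexin RPKM lay between 167 and 225 in every line. The class 3 total was led by SEMA3A in Ovcar4Parental, Ov4Cis and Ov4Carbo7 and by SEMA3B in Ov4Carbo and Ov4Carbo4. SEMA3B supplied 41.3% in Ov4Carbo but 21.8% in Ov4Carbo4, where SEMA3A was close (means of 2.98 and 2.81 log2 RPKM for SEMA3B and SEMA3A).

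The single-cell lines, both derived from Ov4Carbo, differed from each other in 18 of 37 guidance genes (background 20.9%), 3 higher in Ov4Carbo7 (11.1% of all genes) and 15 lower (9.86%). The median difference, Ov4Carbo7 minus Ov4Carbo4, was -0.67, against -0.05 over all genes. Semaphorins, slits and netrins were among those lower in Ov4Carbo7. SEMA4G differed by -4.94 (SE 0.41, adjusted p = 1.33e-06), SEMA3E by -4.09 (SE 0.35, adjusted p = 1.95e-06), SEMA3C by -2.87 (SE 0.38, adjusted p = 4.96e-05) and SLIT3 by -2.81 (SE 0.25, adjusted p = 2.49e-06), and SLIT2, NTN4 and NTN1 by -2.22, -2.52 and -1.02.

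Of 13 receptors, 4 were called lower in Ov4Carbo7 and none higher, beside 9.86% and 11.1% of all genes. UNC5B differed by -2.99 (SE 0.55, adjusted p = 6.14e-04), UNC5A by -2.73, PLXNA3 by -2.20 (SE 0.17, adjusted p = 8.08e-07) and PLXNA2 by -1.20. The other receptors lay between -0.88 for PLXND1 and 0.57 for PLXNB3. The 3 genes higher in Ov4Carbo7 were all semaphorins: SEMA4A by 2.35 (SE 0.35, adjusted p = 1.42e-04), SEMA3A by 2.23 (SE 0.30, adjusted p = 6.02e-05) and SEMA4B by 1.06 (SE 0.18, adjusted p = 3.91e-04). For all 18 the 3 values of one line lay entirely above those of the other, and both lines carry the same title series. Calls that a single library decided were NTN1, with -0.95 (adjusted p = 0.00192) without Ov4Carbo7 replicate 1, -0.98 (adjusted p = 0.00191) without Ov4Carbo4 replicate 3 and a fold just under the limit without its replicate 1, FLRT3, with -0.99 (adjusted p = 0.0118) without Ov4Carbo7 replicate 1, and PLXNA2, with -0.92 (adjusted p = 0.05) without Ov4Carbo4 replicate 1. On the log2(RPKM + 1) scale 12 of the 18 were called, without FLRT3, NTN1, PLXNA2, SEMA4B, SEMA4G and UNC5A.

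**Figure D5:**
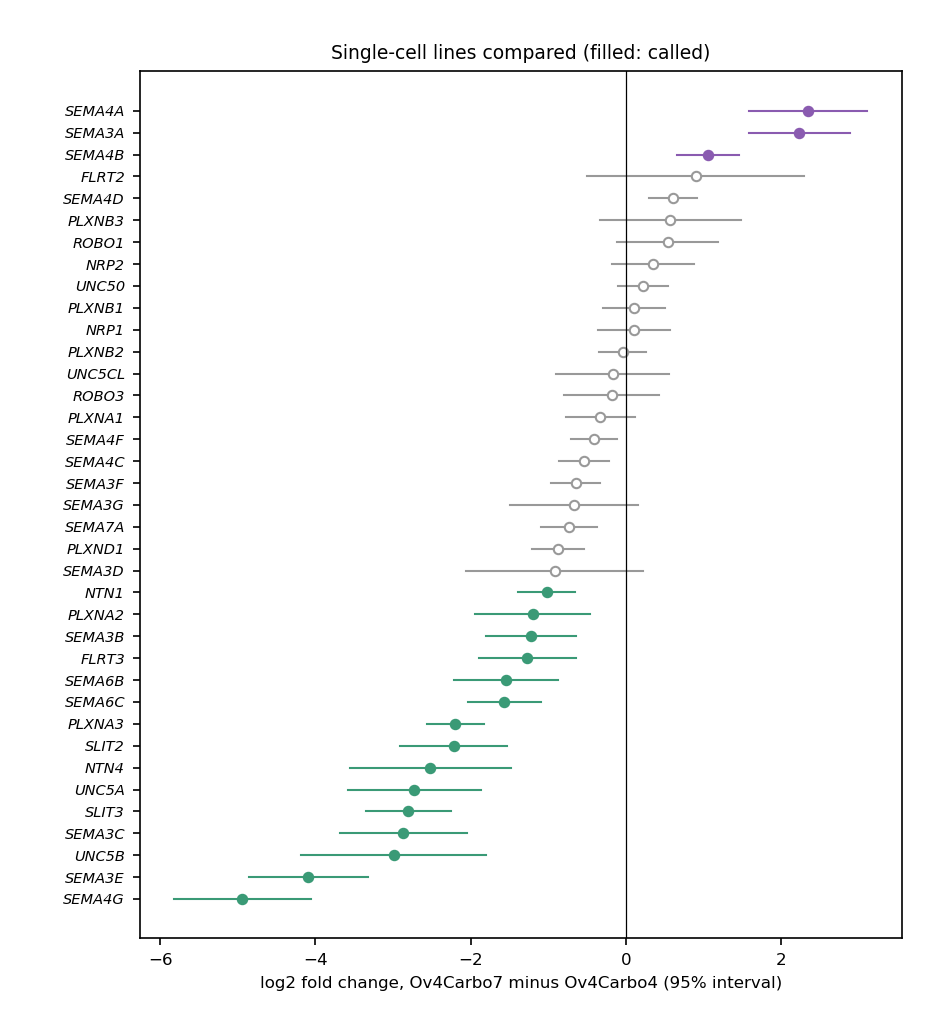
Log2 fold change of each guidance gene between the single-cell lines (x axis, Ov4Carbo7 minus Ov4Carbo4) with its 95% interval, sorted; filled points are called. The 15 called genes on the left, from SEMA4G at -4.94 to NTN1 at -1.02, are lower in Ov4Carbo7, and SEMA4B, SEMA3A and SEMA4A are higher.

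Against its source population Ov4Carbo, Ov4Carbo4 had 11 called members (background 14.2%), 10 higher (7.58%) and 1 lower (6.64%), the latter SEMA4A. The largest rises were SEMA3C, by 2.82 (SE 0.38, adjusted p = 1.18e-04), UNC5B, by 2.69 (SE 0.55, adjusted p = 0.00208), and FLRT3, by 2.52. For UNC5B the value was 3.38 (adjusted p = 2.05e-04) without Ov4Carbo replicate 3. The SEMA3E call at 1.03 was lost without any 1 of 5 libraries, among them Ov4Carbo replicate 2 (0.72, adjusted p = 0.136), and that of UNC5CL at 1.07 without Ov4Carbo replicate 1 (0.85, adjusted p = 0.0724) or Ov4Carbo4 replicate 2 (1.00, adjusted p = 0.0664). In log2(RPKM + 1) the calls of PLXNB3, SEMA3E, SEMA4A, UNC5A and UNC5CL were lost. Ov4Carbo replicate 1 alone shares the title series of Ov4Carbo4, and without it 8 members were called higher and 3 lower (background 16.2%).

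Ov4Carbo7 also had 11 called members against Ov4Carbo (background 13.3%), 4 higher (7.72%) and 7 lower (5.62%). The higher genes were FLRT3, PLXNB3, SEMA3A and SEMA4D, with SEMA4D at 1.44 (SE 0.14, adjusted p = 2.34e-05) and PLXNB3 at 2.70 (SE 0.42, adjusted p = 3.96e-04). The lower genes were NTN4, PLXNA3, SEMA3B, SEMA3E, SEMA4G, SLIT2 and SLIT3, with SEMA4G at -5.02 (SE 0.41, adjusted p = 7.27e-06), SEMA3E at -3.06 (SE 0.35, adjusted p = 5.93e-05) and NTN4 at -2.43 (SE 0.48, adjusted p = 0.00192). SLIT3, at -1.01, was under the fold limit without Ov4Carbo replicate 1 (-0.92, adjusted p = 0.022) or 3 (-0.93, adjusted p = 0.0279) and without Ov4Carbo7 replicate 1 (-0.83, adjusted p = 0.0339) or 2 (-0.98, adjusted p = 0.0267). In log2(RPKM + 1) SEMA4G (-0.86), FLRT3 and SLIT3 were not called. Both comparisons use the same Ov4Carbo samples.

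Between the drug-selected populations, Ov4Cis had 12 called members against Ov4Carbo (background 13.8%), 7 higher (7.88%) and 5 lower (5.90%). Beside ROBO1 and FLRT3, SEMA3B was lower in Ov4Cis by 4.12 (SE 0.27, adjusted p = 2.67e-07) and SLIT2 by 2.54 (SE 0.32, adjusted p = 6.92e-05), while SEMA3A was higher by 1.64 (SE 0.30, adjusted p = 0.00122) and SEMA6C by 1.63 (SE 0.22, adjusted p = 1.12e-04). SEMA4A and PLXNB1 were lower in Ov4Cis, at -1.78 and -1.12, and SEMA3G, SEMA3C, ROBO3 and NRP1 were higher, at 1.61, 1.36, 1.23 and 1.21. The calls of SEMA3C without Ov4Cis replicate 3 (1.18, adjusted p = 0.0627) or Ov4Carbo replicate 2 (0.88, adjusted p = 0.0457), of PLXNB1 without Ov4Carbo replicate 2 (-0.96, adjusted p = 0.00262) and of NRP1 without Ov4Cis replicate 1 (0.98, adjusted p = 0.00357) were lost. In log2(RPKM + 1) ROBO3, SEMA3C, SEMA3G and SEMA4A were not called.

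Other genes of the same pathways were taken from lists written from general knowledge. Of 41 alternative ligands, co-receptors and modulators, such as RGM proteins, VEGF receptors, syndecans and latrophilins, 33 were in the table. Of these 2 rose and 6 fell in Ov4Cis, 3 and 5 in Ov4Carbo, 5 and 8 in Ov4Carbo4, and 1 and 2 in Ov4Carbo7. The shares called were 24.2%, 24.2%, 39.4% and 9.09% in that order, beside 15.9%, 12.7%, 15.1% and 17.0% of all genes. None of the listed genes changed in the same direction in at least 3 lines while reaching a line mean of 1. Of 58 intracellular effectors, 52 were in the table, and 3 rose and 7 fell in Ov4Cis, 1 and 7 in Ov4Carbo, 2 and 5 in Ov4Carbo4, and 3 and 6 in Ov4Carbo7, shares of 13.5% to 19.2% beside backgrounds of 12.7% to 17.0%.

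Of the effectors, MICAL2, an enzyme that oxidizes actin, stood at 4.78 ± 0.13 log2 RPKM in Ovcar4Parental (SD, n = 3). MICAL2 fell in all 4 lines, with log2 fold changes from -1.70 in Ov4Carbo to -1.20 in Ov4Cis. LIMK2, a kinase of cofilin, stood at 4.80 ± 0.35 and fell in Ov4Cis, Ov4Carbo and Ov4Carbo4, with -1.60, -1.44 and -1.12, and was -0.79 in Ov4Carbo7. The largest adjusted p among the called changes of these genes was 0.00103.

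Ephrins and Eph receptors, a separate contact-dependent guidance family, had 14 of 22 listed genes in the table. Of these 1 rose and 5 fell in Ov4Cis, 1 and 6 in Ov4Carbo, 1 and 4 in Ov4Carbo4, and 1 and 6 in Ov4Carbo7, so that 5 to 7 of 14 were called in each line, where 12.7% to 17.0% of all genes were. EFNB1, EFNB2 and EPHA1 fell in all 4 lines. EFNB1 stood at 3.18 ± 0.28 in Ovcar4Parental and changed by -1.48 to -1.04, EFNB2 at 5.05 ± 0.50 and changed by -2.16 to -1.38. EPHA1, an epithelial Eph receptor, stood at 3.98 ± 0.20 in Ovcar4Parental and -3.25 ± 0.39 in Ov4Cis, with log2 fold changes of -7.23 in Ov4Cis, -4.63 in Ov4Carbo7, -2.71 in Ov4Carbo and -1.12 in Ov4Carbo4. Ov4Cis and Ov4Carbo7, the lines lowest in EPHA1, were also the lowest for the markers EPCAM, KRT7, KRT8, KRT18 and MUC16. For KRT18 and KRT7, Ov4Carbo7 (means of 6.43 and 5.48) was close to Ov4Carbo4 (6.46 and 5.64). Ov4Cis and Ov4Carbo7 were not the lowest pair for PAX8, SOX17, MSLN, FOLR1 or WT1, and a link with EPHA1 was not tested.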

How the data were processed

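Libraries were made from cultured cells with polyA capture, per the labels' protocols, and the submitters' processing notes name BWA 0.7.15-r1140, HTSeq, hg19 and GRCh37 without their roles. Log2 RPKM values were deposited by the authors after cqn (conditional quantile normalization), as the table's name states. The name also mentions a threshold, for which no rule is given in the sources used here, and strand and depth are unknown.

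Symbols from a table of Ensembl identifiers matched 16448 of 16604 genes. All 15 samples were fitted with limma 3.58.1 (R 4.3.3), 1 mean per line, with default moderation and Benjamini-Hochberg adjustment over all genes in each of 8 comparisons and in the F-test. The fit was tested on simulated data. Values in every sample are given for members called against Ovcar4Parental with a mean of at least 1 in some line, and in the other lists genes called alike in at least 3 derived lines are named under the same limit, except 1 that is not reported here. The members and lists were chosen with earlier results of these data known. Overlapping exons were found in GENCODE annotation and promoter windows in RefSeq, both on GRCh38, so none of their coordinates was joined to the counts. Replicate numbers did not pair samples. Alternatives covered the scale and filter of low values, variance prior, centring, samples fitted, replicate block, title series, p threshold and each replicate left out.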

Additional observations from a re-analysis of the deposited data

Results flagged for a closer look

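In 4 genes the lines moved to opposite sides of Ovcar4Parental, with both changes called, and the direct comparison of those lines was called too. ROBO1 differed by -7.41 on the log2 scale between Ov4Cis and Ov4Carbo (SE 0.30, adjusted p = 4.41e-09). FLRT3 differed by 3.55 between the same lines (SE 0.28, adjusted p = 1.64e-06). SEMA3E was lower in Ov4Carbo7 than in Ov4Carbo4, with -4.09 (SE 0.35, adjusted p = 1.95e-06). SEMA3C was higher in Ov4Carbo4 than in Ov4Carbo by 2.82 (SE 0.38, adjusted p = 1.18e-04) and lower in Ov4Carbo7 than in Ov4Carbo4, with -2.87 (SE 0.38, adjusted p = 4.96e-05). All are from limma with 3 replicates per line. Since the genes were picked for opposite calls of at least 1 log2 unit each, a large direct difference follows from the choice. In log2(RPKM + 1) ROBO1 in Ov4Cis (-0.67) and SEMA3C (0.86) and SEMA3E (0.95) in Ov4Carbo4 were not called against Ovcar4Parental, and with a title series term SEMA3C in Ov4Carbo4 was -0.05.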

How the results depend on the processing

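The numbers of called members changed most with the treatment of low values. In log2(RPKM + 1) the count fell to 5 in Ov4Carbo4 against Ovcar4Parental and to 6 against Ov4Carbo, while the share of all genes fell from 15.1% to 6.34% and from 14.2% to 5.45%. With genes of a mean of at least 1 alone, 25 members of 12037 genes were tested, and 21 members and 79.7% of all genes passed the F-test. Against Ovcar4Parental 9 members were called in Ov4Cis, 9 in Ov4Carbo, 8 in Ov4Carbo7 and 5 in Ov4Carbo4. Under the same filter 3 were called in Ov4Carbo4 against Ov4Carbo and 11 between the clones. The share of all genes called under that filter was 6.06% to 13.7%, where it was 12.7% to 20.9% without it. With a title series term 8 were called in Ov4Carbo4 against Ovcar4Parental, and SEMA3C there reversed to -0.05 (adjusted p = 0.959); the cause was not tested. Leaving out 1 replicate gave 12 to 15 called members in Ov4Cis, 13 to 15 in Ov4Carbo, 16 to 19 in Ov4Carbo7 and 11 to 13 in Ov4Carbo4 against Ovcar4Parental. Between derived lines it gave 10 to 12 for Ov4Carbo4 and 10 to 13 for Ov4Carbo7 against Ov4Carbo, 16 to 19 between the clones, 11 to 13 for Ov4Cis against Ov4Carbo, and 31 to 33 in the F-test. Same-numbered replicates of different lines deviated together in 11 of 30 pairs (correlation over 0.1, median -0.0218). Differently numbered replicates did so in 24 of 60 pairs (median 0.0184), and 5 of 15 samples matched their own number best. With the replicate block 15, 15, 17 and 12 members were called against Ovcar4Parental in the order above, 11, 11, 18 and 12 in the other comparisons, and 32 passed the F-test; of 50 calls of single genes 49 held, and SEMA3C in Ov4Carbo4 missed the threshold (adjusted p = 0.0529). Of those 50 calls, 37 held in log2(RPKM + 1), 41 with the title series term, 44 at an adjusted p under 0.01, 47 with the compared groups alone, 49 after centring on sample medians and 50 with a variance trend. Unknown depth limits what can be said of the genes near the lowest values.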
